A study of Rattus norvegicus with 2 samples.

Results

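The genes described here are 38 components of Wnt signalling, comprising 12 Wnt ligands, 12 receptors, 4 secreted antagonists, 9 genes of the beta-catenin machinery and the planar polarity gene Vangl2. They were listed by name, and a probe was assigned to a gene when its RefSeq accession belonged to that gene's current rat symbol. Of the 38 genes, 31 had at least 1 probe, 41 probes in all, and 26 were measured, meaning that the brightest probe was well above background on both arrays. On the whole array 13268 named genes had a probe and 10346 were measured.

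The 2 samples were whole kidneys of female PCK rats, which carry a germline mutation of Pkhd1 and develop cysts in kidney and liver. Pioglitazone, a drug that activates PPAR-gamma, was given to one group every day by gavage (10 mg/kg) between week 4 and week 20 of age. Controls were gavaged with vehicle (0.5% DMSO) on the same schedule. RNA of several kidneys was combined per group, and each mixture was hybridised to 1 one-colour (Cy3) Agilent array. The labels give the pool once as 5 females and once as 3 rats. Both groups were mutant, and the +/+ rats that the labels also mention were not analysed here.

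Wnt ligands are secreted lipid-modified proteins that bind Frizzled (Fzd) receptors together with the co-receptors Lrp5 and Lrp6. In the canonical branch the signal passes through Dishevelled (Dvl) to the complex of Axin, Apc and Gsk3b, which otherwise marks beta-catenin (Ctnnb1) for destruction, and beta-catenin then acts with Tcf and Lef factors on target genes. Other branches control planar cell polarity and calcium. In the developing kidney Wnt11 is made at the ureteric bud tips, Wnt4 drives the conversion of mesenchyme to nephron epithelium and Wnt7b acts in the forming medulla.

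With 1 array per group no difference has a replicate check and no p-value was computed. Differences are pioglitazone minus vehicle on the log2 scale, after each array was set to its own 75th percentile. The error of a difference combines the scanner software's error of both spots and is technical only, with no spread between animals. Among the 26 measured members it ran from 0.20 to 0.33. Its median over all measured genes was 0.20, so for many genes it was nearly constant. Multiples of it then mostly restate the size of the difference. A gene was called when it differed at least 1.5-fold and by more than 2 times its error. The arrays lay on the same slide, had the same scan record and correlated with r = 0.997 across 10346 measured genes, which are not independent replicates.

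The lowest differences of single members were those of the ligands Wnt11 and Wnt4. Wnt4 and Wnt11 were lower in the pioglitazone pool, by 1.65-fold and 1.80-fold, and were the called genes among the 26 measured. All 8 measured ligands had negative differences, with a median of -0.28, beside -0.30 for the 2 measured secreted antagonists, -0.06 for receptors and -0.15 for beta-catenin machinery. The called share, 2 of 26 (7.69%), compares with 1.69% of all measured genes called lower. No member was called higher, against 0.802% of all measured genes. Negative differences were found in 20 of 26 members (76.9%) and in 42.5% of all measured genes. Some of these signs depend on the scaling. Without it Wnt1 was at 0.02, Fzd2 at 0.04, Dvl2 at 0.07 and Fzd5 at 0, and all measured genes had a median of 0.11. The members' median was -0.12, beside 0.03 for all measured genes. These counts describe 2 pools and carry no information on the spread between animals.

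**Figure D1:**
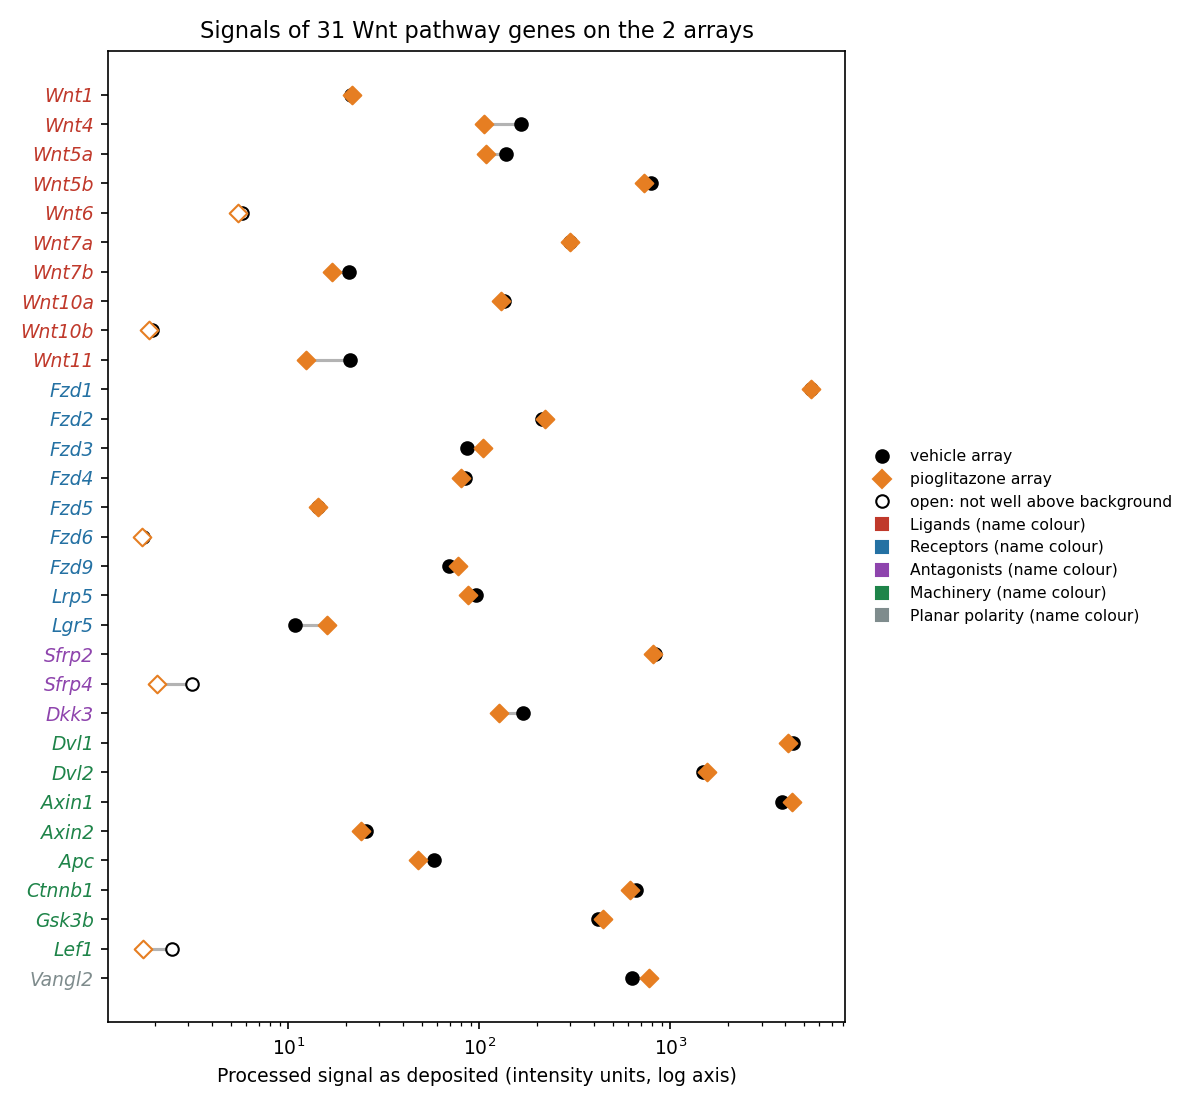
Processed signal of the brightest probe of each of the 31 Wnt pathway genes with a probe (x axis, intensity units, log scale) on the vehicle array (circles) and the pioglitazone array (diamonds). Open symbols mark the 5 genes not well above background on either array, and Wnt4 and Wnt11 show wide gaps with vehicle on the right.

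Wnt4, a ligand that in adult kidney is known from the collecting duct and from injured interstitium, gave a signal of 166 on the vehicle array and 106 on the pioglitazone array. The difference was -0.72 with an error of 0.21, or 3.52 times the error. Of all measured genes, 93 of 10346 measured genes (0.899%) had a difference as low or lower. Among genes with a mean signal between 50 and 500, the class of Wnt4, 1.66% were called lower.

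Wnt11, the ureteric bud tip ligand, gave signals of 21.0 and 12.3, a difference of -0.85 with an error of 0.33. That is 2.58 times the error, so the call is nearer its limit than that of Wnt4 although the fold is larger. The raw median spot signals were 40.0 and 33.0 over local backgrounds of 20.0 and 19.0, so this difference rests on a faint spot. With normexp background correction it was -0.24 and not called. That correction adds an offset of 50, more than the 20.0 and 14.0 left after local background. It shrinks a difference of such a spot by construction and so cannot decide this call. Without any offset, the 20.0 and 14.0 also lay closer together than the processed 21.0 and 12.3. The size of the Wnt11 difference thus depends on the starting signal and background step, and whether a call would hold on the raw signals was not tested. Of all measured genes 0.551% lay as low or lower. In its class, genes with a mean signal under 50, 4.55% were called lower. Wnt4 and Wnt11 were each read from 1 spot of 1 probe, so no other spot or probe bears on either value. A lower signal of a whole-kidney pool cannot tell fewer cells of a type from less RNA per cell.

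**Figure D2:**
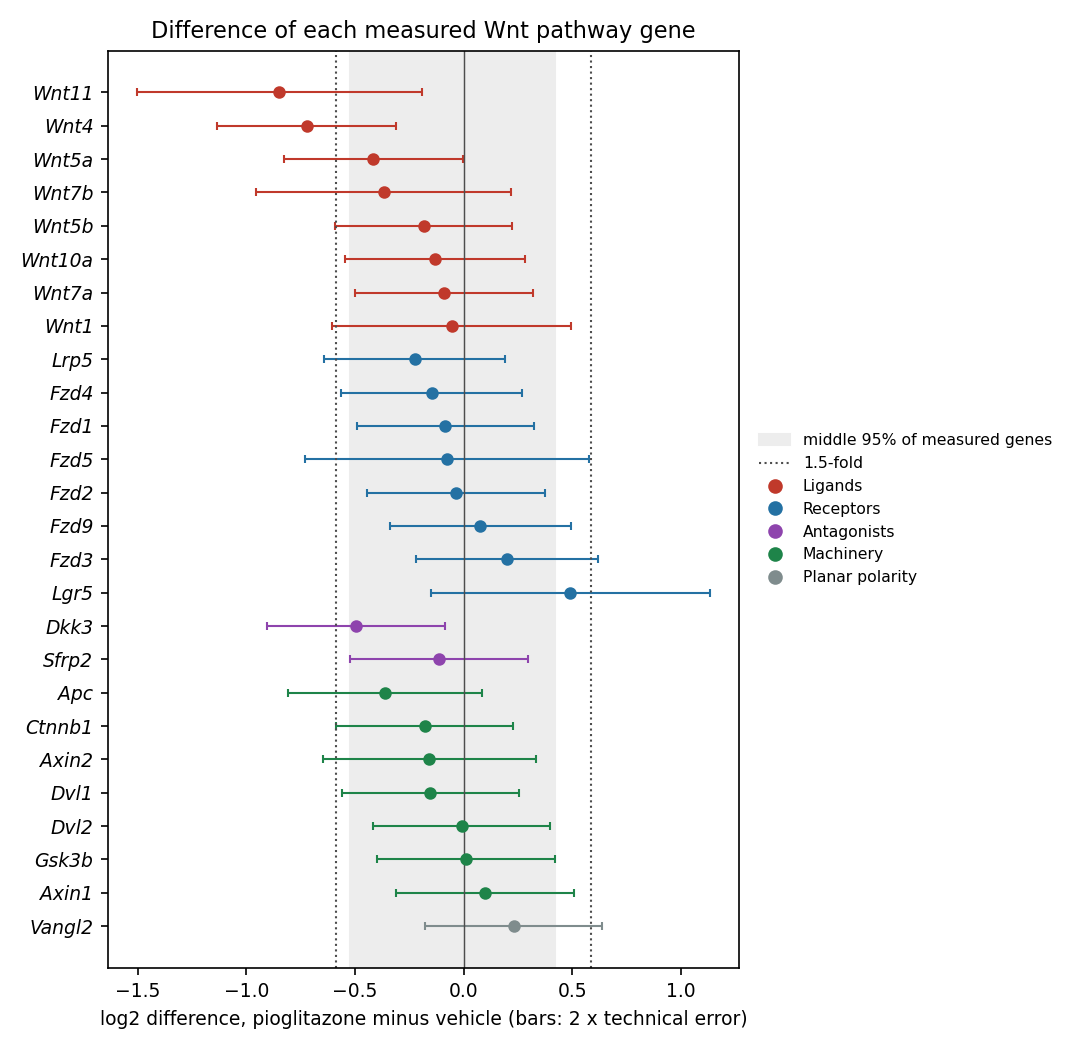
Log2 difference (pioglitazone minus vehicle, x axis) of the 26 measured Wnt pathway genes grouped by role, with bars of 2 times the technical error. The grey band holds the middle 95% of all measured genes, from -0.52 to 0.42, dotted lines mark 1.5-fold, and Wnt11 (-0.85) and Wnt4 (-0.72) lie beyond both.

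None of the remaining 6 ligands was called. Wnt5a, a ligand of the non-canonical branches made by stromal cells, gave signals of 138 and 109, a difference of -0.42 that just exceeded 2 times its error of 0.21. Wnt7b, a ligand of collecting duct epithelium, gave dim signals of 20.7 and 16.9, and its difference of -0.37 lay within 2 times its error of 0.29. Its raw signals less local background, before any scaling, were nearly alike at 22.5 and 23.5. The difference of Wnt7b was negative under each of 11 alternative ways of processing. Most of these reuse the same processed signals of 1 spot and are not separate checks. With normexp, which starts from the raw signals, the difference was -0.09. In the main setting Wnt5a was the one ligand beyond 2 errors that stayed short of 1.5-fold.

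Wnt5b, a close relative of Wnt5a, had a bright probe with signals of 788 and 731 (-0.18) and a dimmer probe with 57.7 and 61.8 (0.02). Wnt10a, a canonical ligand of skin and teeth, likewise split between a probe at -0.13 (signals 135 and 130) and one at 0.04 (13.8 and 15.0). Neither gene thus had a settled direction. Wnt7a, a canonical ligand, had 3 measured probes at -0.09, -0.08 and -0.08, with signals of 300 and 297 on the brightest, so its arrays were nearly alike. Wnt1, the founding member of the family, gave 21.2 and 21.5, a difference of -0.06.

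The ligand median was -0.28 over 8 genes and -0.16 over the 6 without Wnt4 and Wnt11. Wnt6 (5.70 and 5.42) and Wnt10b (1.93 and 1.86) were not well above background on either array. Wnt2 and Wnt2b had no matched probe and were not analysed here.

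Windows around the annotated starts of the called ligands, termed promoter windows here, are shown because both genes were lower together. They run from 250 bases before to 50 after the start, from RefSeq on the GRCr8 build. Of the 38 members 25 had such a window. Capitals mark matches on either strand to a TCF/LEF motif (CTTTGAA, where T may also stand for either or both of the final letters) or a GC box (GGGCGG), and neighbouring matches may overlap. Wnt4 lies at chr5:154797200-154797499 and Wnt11 at chr1:162549110-162549409, both on the plus strand.
Wnt4: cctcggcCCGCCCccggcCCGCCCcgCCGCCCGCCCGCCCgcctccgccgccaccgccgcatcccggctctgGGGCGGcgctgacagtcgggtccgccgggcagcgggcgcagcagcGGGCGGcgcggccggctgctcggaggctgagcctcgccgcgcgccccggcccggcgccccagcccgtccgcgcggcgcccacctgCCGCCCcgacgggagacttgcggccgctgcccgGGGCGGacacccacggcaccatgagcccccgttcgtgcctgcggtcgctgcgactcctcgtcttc
Wnt11: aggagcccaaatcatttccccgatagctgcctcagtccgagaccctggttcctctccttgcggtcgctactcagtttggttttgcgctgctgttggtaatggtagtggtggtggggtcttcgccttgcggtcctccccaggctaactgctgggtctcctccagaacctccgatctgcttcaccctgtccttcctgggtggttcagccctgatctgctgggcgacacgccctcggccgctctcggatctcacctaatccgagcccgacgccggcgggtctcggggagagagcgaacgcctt

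The windows differed in these letters. The Wnt4 window held 9 GC boxes, 3 of them on the plus strand, and 83.3% G or C, whereas that of Wnt11 held no GC box and 61.7% G or C. Neither held a TCF/LEF motif or the PPAR half-site AGGTCA on either strand. Over 33469 promoter windows 33.1% held a GC box, 17.1% a TCF/LEF motif and 16.2% the half-site. Among the 25 member windows these counts were 14, 2 and 1. A match or its lack describes these windows and not binding. In the Wnt4 window an ATG with an open reading frame follows a few bases after the annotated start. That start may thus not be where transcription begins, and the bases before it may be transcribed. Where transcription starts was not tested.

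Secreted antagonists typically, though not in every case, bind Wnt proteins or their co-receptors outside the cell. Dkk3, a divergent member of the Dickkopf family that is released by stressed tubule epithelium, gave signals of 170 and 127. Its difference of -0.50 was 2.42 times its error of 0.20 and stayed short of 1.5-fold, at 1.41-fold. Sfrp2, a Frizzled-related decoy made by fibroblasts, had 3 measured probes, with signals of 831 and 810 (-0.11), 346 and 343 (-0.09) and 268 and 241 (-0.23). All 3 were negative and within 2 times their error. Sfrp4 was not well above background on either array, at 3.15 and 2.05, and Sfrp1 had no matched probe.

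The receptors were not called in either direction. Fzd1, a bright Frizzled receptor, gave 5470 and 5440 (-0.08), and Fzd2 gave 214 and 220 (-0.04), so neither array stood out. Fzd4, which also binds norrin in blood vessels, gave 84.1 and 80.0 (-0.15). Fzd3, known from axon guidance and planar polarity, gave 86.0 and 104, and its difference of 0.20 lay within its error of 0.21. Fzd9 gave 69.3 and 77.0 (0.08), and the dim Fzd5 gave 14.3 on both arrays (-0.08 after scaling). Lrp5, the canonical co-receptor, gave 96.3 and 86.8, a difference of -0.23 against an error of 0.21.

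Lgr5, an R-spondin receptor and stem cell marker, had the highest difference among the members. Its signals were 10.8 and 16.0 and its difference was 0.49 (1.41-fold), within 2 times its error of 0.32. Of all measured genes 1.48% lay as high or higher. Its raw median spot signals were 44.0 and 47.0 over local backgrounds of 21.5 and 19.0, so the difference rests on a faint spot. Fzd6 was at background (1.74 and 1.71), and Fzd7, Fzd8 and Lrp6 had no matched probe. The receptor median was -0.06 over 8 genes.

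**Figure D3:**
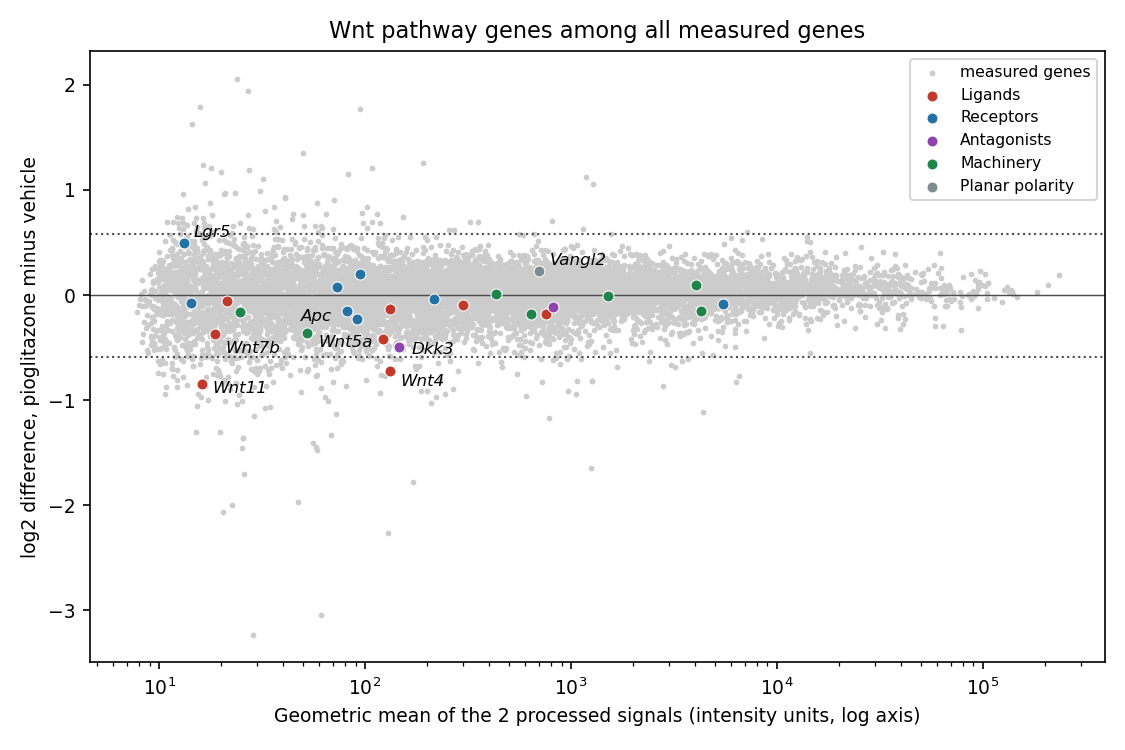
Log2 difference (y axis) against the geometric mean signal of both arrays (x axis, intensity units, log scale) for 10346 measured genes in grey and the 26 Wnt pathway genes in colour. Wnt4 (-0.72) and Dkk3 (-0.50) lie at signals above 100, whereas Wnt11 (-0.85) and Lgr5 (0.49) lie below 50, where grey points spread widest.

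None of the 7 measured genes of the beta-catenin machinery was called, and 6 of the 7 lay below the median of all measured genes. Ctnnb1, which encodes beta-catenin, was read by a bright probe with signals of 660 and 614 (-0.18) and by a dimmer one printed 10 times. Over those 10 spots the vehicle signal ran from 64.8 through a median of 67.9 to 72.5 and the pioglitazone signal from 57.4 through 66.3 to 75.2. The difference was -0.11 ± 0.14 (SD over 10 spots), negative in 8 and positive in 2, so the arrays overlapped.

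Gsk3b, the kinase that marks beta-catenin for destruction, was also printed 10 times, and 2 of its spots carried an outlier flag and were left out. The other 8 gave vehicle signals from 403 through 417 to 430 and pioglitazone signals from 423 through 443.5 to 457. The difference was 0.01 ± 0.02 (SD over 8 spots), from -0.02 to 0.06. These SDs hold spot noise alone, and both are smaller than the software's error of 0.21 and 0.20 for the same probes.

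**Figure D4:**
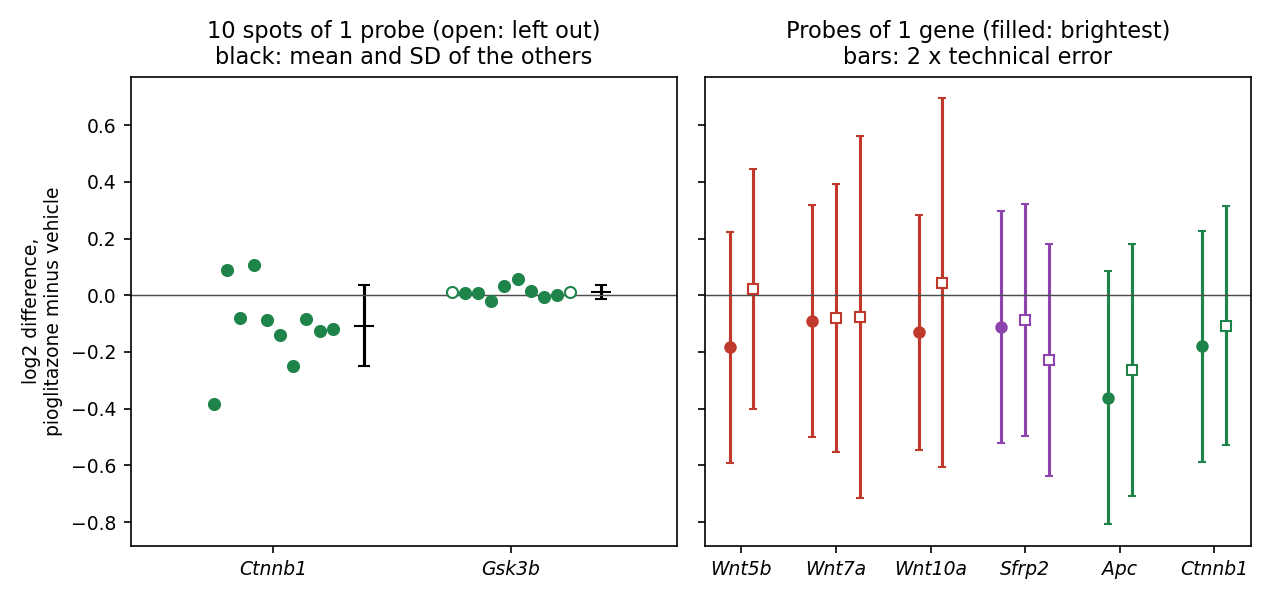
Log2 difference (y axis, pioglitazone minus vehicle) of each of the 10 spots of a Ctnnb1 and a Gsk3b probe (left, open points left out, black bars mean and SD) and of every measured probe of genes with several (right, filled points the brightest probe, bars 2 times the technical error). Ctnnb1 spots run from -0.38 to 0.11 and Gsk3b spots from -0.02 to 0.06, and the probes of Wnt5b and Wnt10a fall on both sides of 0.

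Apc, the scaffold of the destruction complex, had 2 measured probes, with signals of 58.0 and 47.6 (-0.36) and of 36.6 and 32.1 (-0.26). Both were lower with pioglitazone and within 2 times their error. Axin1, the limiting scaffold, gave 3820 and 4310 (0.10). The transducers Dvl1 and Dvl2 gave 4380 and 4150 (-0.15) and 1480 and 1550 (-0.01). Lef1, a transcription factor of the pathway, was at background (2.46 and 1.73), and its partner Tcf7l2 had no matched probe. The machinery median was -0.15 over 7 genes.

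Axin2, a scaffold whose own transcription rises with beta-catenin activity and which is widely read as a gauge of the canonical branch, gave dim signals of 25.4 and 24.0. Its difference of -0.16 was smaller than its error of 0.24. Its promoter window is shown because of that role, at chr10:94398535-94398834 on the plus strand of GRCr8, with capitals as above.
Axin2: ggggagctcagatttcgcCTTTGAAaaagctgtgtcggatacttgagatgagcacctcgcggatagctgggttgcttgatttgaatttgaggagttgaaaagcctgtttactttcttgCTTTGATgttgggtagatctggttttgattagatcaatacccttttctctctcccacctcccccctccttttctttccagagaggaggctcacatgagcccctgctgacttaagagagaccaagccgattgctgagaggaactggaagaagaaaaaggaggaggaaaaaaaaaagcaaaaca

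The Axin2 window held 2 TCF/LEF matches, with first bases at positions -232 and -132 from the start, and no GC box, at 45.7% G or C. Fzd7, which had no matched probe, was the other of the 25 member windows with a TCF/LEF match. Vangl2, a membrane protein of planar polarity, gave 628 and 776, a difference of 0.23 within 2 times its error of 0.20. A dim second probe, detected on the pioglitazone array alone, gave 7.33 and 8.64.

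Looser limits added members on the lower side. Beyond 2 times the error at any fold, 4 members were lower (15.4%), namely Wnt11, Wnt4, Dkk3 and Wnt5a, against 3.73% of all measured genes, and 0 were higher, against 1.93%. The place of Wnt5a among them depends on the scaling. It fell within 2 times its error (0.41) with median scaling (-0.38), quantile normalization (-0.40), no scaling (-0.34) and normexp (-0.29). In the other alternatives that held Wnt5a it stayed just beyond. Beyond 0.32 on the log2 scale with no error limit 6 were lower (23.1%), now with Wnt7b and Apc, against 7.75%, and Lgr5 was higher, against 5.35%. The other 19 members lay within 0.32 of 0, and 17 of the 26 differed by less than the software's error for them.

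Further Wnt pathway genes, 133 in lists made for this report with earlier results of these data known, served as context. Of these, 77 were measured, and their median was -0.04. Called lower were 0, against 1.69% of all measured genes, and called higher 1, against 0.802%. The negative share was 45 of 77, against 42.5% of all measured genes. In the list of other ligands and secretion 3 of 14 were measured. The norrin gene Ndp was at -0.40 with an error of 0.39. Porcn, which lipidates Wnt proteins (2700 and 2750, -0.05), and Wls, which carries them to the cell surface (5880 and 6080, -0.03), gave bright signals that were nearly alike. Wnt3, Wnt8a, Wnt8b, Wnt9a, Wnt9b and the R-spondin Rspo3 were not well above background.

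Among 8 further receptors and membrane regulators the median was -0.0034 and none was called. The glypican Gpc3 was at -0.27, the Wnt receptor Ryk at -0.23, the Dickkopf receptor Kremen1 at -0.17 and the glypican Gpc4 at 0.12. Among 4 further antagonists the median was 0.05, with Igfbp4 at 0.32, Sfrp5 at 0.21, Frzb at -0.15 and Dkk1 at -0.11. None of the 4 was called.

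The 24 further machinery genes had a median of 0.0036, with 11 negative, against 42.5% of all measured genes. The casein kinase Csnk1a1 was at -0.38, the beta-catenin antagonist Cby1 at 0.27, the co-activator Bcl9 at -0.27 and the co-repressor Tle3 at -0.27. The 16 genes of planar polarity and calcium signalling had a median of -0.02. Fjx1, a secreted relative of a planar polarity kinase of flies, was at -0.46 with an error of 0.21, the phosphatase Ppp3ca at -0.18, Camk2b at 0.17 and Prickle3 at 0.17. Neither list held a called gene.

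The 24 measured transcriptional targets had a median of -0.12, with 18 negative, against 42.5% of all measured genes. Plaur, the urokinase receptor gene, was called higher (50.3 and 99.2, 0.90). Its probe lies in the sixth of 10 equal bands of grid rows, which was left out with the seventh in an alternative. Birc5, which encodes survivin and also marks dividing cells, was at -0.57 (297 and 211), just short of 1.5-fold. Cd44, a hyaluronan receptor of injured tubules and leukocytes, was at -0.45 and the mesenchymal factor Twist1 at -0.41.

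**Figure D5:**
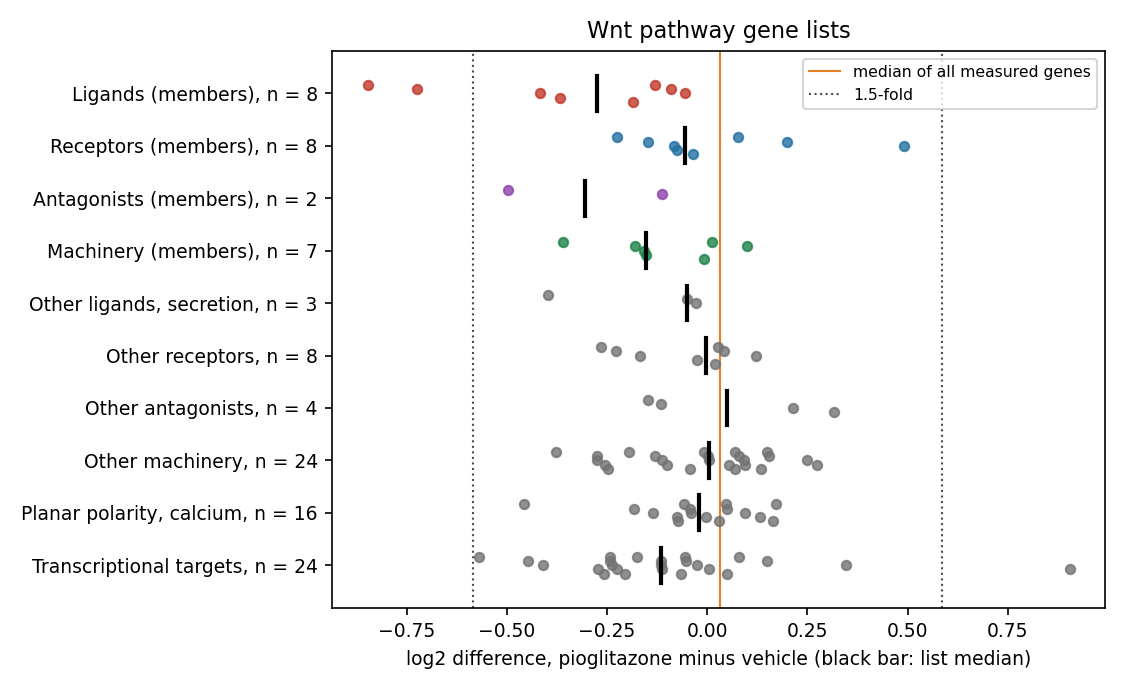
Log2 differences (x axis, pioglitazone minus vehicle) of the measured genes in each Wnt pathway list, with the list median as a black bar and the median of all measured genes (0.03) in orange. All 8 member ligands lie below the orange line, and 1 target, Plaur at 0.90, lies beyond the 1.5-fold line on the right.

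Markers of other cells moved in the same samples, and their part in the Wnt differences was not tested. For the counts that follow, 42.5% of all measured genes were negative, 1.69% were called lower and 0.802% higher. Summed levels are given as multiples of each array's 75th percentile signal. Fibroblast and pericyte markers were negative in 6 of 7 measured genes, with a median of -0.35 and a summed level of 52.3 with vehicle and 40.9 with pioglitazone. Of these Col3a1 was called lower, and Postn was not above background. Macrophage markers were negative in 7 of 7 (12.0 and 9.13), with 3 called lower, and urothelial markers in 5 of 5 (5.88 and 4.66), with 2 called lower. Lymphocyte markers were negative in 4 of 4 (1.56 and 1.10), with Cd2 called lower.

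The widest marker differences were those of fat. Adipocyte markers were negative in 4 of 4 measured genes (6.53 and 3.66), with Retn at -2.27, Ucp1 at -1.78 and Cfd at -1.17 called lower, Adipoq at -0.09 and Lep not above background. Erythroid markers were negative in 3 of 3 (9.90 and 6.88), with Ahsp called lower. The adrenal marker Akr1b7 was called higher at 1.12, while Cyp11b1 was detected on the vehicle array alone (28.9 and 1.42) and Cyp11a1 on neither. These adrenal markers thus pointed in opposite directions.

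Collecting duct principal cell markers were negative in 3 of 5 (120.6 and 105.1), with Aqp2 at -0.33. Podocyte markers were positive in 5 of 5 (32.1 and 36.2) and proximal tubule markers in 8 of 8 (398.8 and 429.3), and none of these 3 lists held a called gene. Intercalated cell markers were positive in 3 of 4 and thick ascending limb markers in 2 of 3. Distal convoluted tubule markers were positive in 1 of 2 and endothelial markers in 2 of 5, and these lists also held no called gene. All 8 proximal tubule and all 5 podocyte markers were measured, so the labelled tissue carried its defining markers. Pparg itself gave 37.3 and 32.2, a difference of -0.29 within 2 times its error.

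The grid bands left out in an alternative held a share of members close to that of all measured genes. The sixth and the seventh of 10 bands held 5 of the 26 measured members, namely Wnt5a, Wnt5b, Lgr5, Axin2 and Dvl1, and 20.2% of all measured genes. Wnt4 and Wnt11 lie outside them. Over the 21 members outside, the median was -0.09 and the same 2 were called. With normexp background correction on raw median signals and an offset of 50, Wnt4 was at -0.48 and Wnt11 at -0.24 and neither was called. It differs from the processed signal in starting values, background step and offset at once, and the part of each was not tested.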

How the data were processed

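Gene expression was measured on 2 one-colour Agilent arrays, 1 of pooled kidney RNA per group. The deposited scanner files hold spot intensity, from which, per the file headers, Agilent Feature Extraction 10.7.3.1 had subtracted background and spatial trends without scaling one array to the other. At all 45018 features of each array the series' deposited table held this same intensity. Its medians, 46.8 and 47.7, show a linear scale without centring.

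Of 43379 non-control spots, 724 with an outlier flag of spot or background on either array were left out, 0 were saturated, and 71.8% (vehicle) and 73.1% (pioglitazone) were well above background, which with the number of arrays limits the precision. Signals were put on a log2 scale, spots of a probe were averaged, and each array's 75th percentile (signals of 390.0 and 411.0) was subtracted. Accessions without versions named 16697 of 40464 probes (41.3%) in RefSeq's GRCr8 table, and none had several symbols. The files use the rn4 build, so no probe coordinates are given. A gene took its brightest probe.

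Members, lists, thresholds and the rule for named genes (all members with a probe, called genes, and by size of difference up to 4 genes per further list and 3 per marker list) were chosen with earlier results of these data known. Alternatives covered scaling, background, filters, probes, thresholds and grid position. Python 3.11.15 (numpy 2.4.6, pandas 2.3.3) and limma 3.58.1 in R 4.3.3 were used.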

Additional observations from a re-analysis of the deposited data

How the results depend on the processing

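Of 15 alternatives, 11 left Wnt4 and Wnt11 as the called members, among them every scaling. Not all of the 11 could have changed these calls. Each gene was read from 1 unflagged spot outside the sixth and the seventh grid bands. Changes of flags, probe averaging or grid bands, and lifting the dim filter or the error limit, could therefore hardly alter a call already made. No member was called lower at a 2-fold threshold (0), with normexp on median signals (0) or above the median signal (0), which removes both genes from the test. At a threshold of 0.32 on the log2 scale 4 were called lower. The error limit was kept there and always exceeded 0.32 for members, so this repeats the count beyond 2 errors at any fold. No member was called higher under any of the 15. Wnt4 ran from -0.73 to -0.48 and Wnt11 from -0.86 to -0.24, with normexp giving the smallest size of each (-0.48 and -0.24). Dkk3 ran from -0.51 to -0.33 and Lgr5 from -0.0080 with normexp to 0.57. The median over all members moved to -0.046 without scaling, where all measured genes had a median of 0.11. The ligand median moved to -0.17 with no filter on dim probes. The antagonist median, of 2 genes in the main setting, moved to -0.50 with no filter, where Sfrp4 joined and Dkk3 was the middle value. Above the median signal Sfrp2 alone remained, at -0.11. The machinery median moved to -0.0090 above the median signal and to -0.0075 without the sixth and the seventh grid bands. The receptor median ran from -0.08 to 0.02, and turned positive without scaling. Over the further pathway genes the median moved to -0.0036 with median scaling and to 0.032 without scaling. The call of Plaur was lost (0 higher) with normexp, above the median signal, at 2-fold and without those grid bands. Of these genes 4 were called lower at the 0.32 threshold and 1, Jun, with spots of outlier flag kept (-0.79 against -0.21), a gene named after its values were seen. Other than by construction of the alternative, the cause was not tested. All genes called lower numbered 175, and 46 with normexp, 29 above the median signal, 30 at 2-fold and 386 at the 0.32 threshold, and those called higher 83, and 10, 5, 17 and 200 under the same settings. Without scaling 116 were lower and 128 higher, and with median scaling 136 and 101. With no filter on dim probes 131 were higher. Using feature outlier flags alone, chosen after seeing the data, changed no count of called Wnt genes. Naming probes through a gene name column was not run, because the files read here give accessions. No paired analysis was possible because a single array stood for either group.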
